A study of Sus scrofa with 36 samples.

Results

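The genes described here carry a cell through mitosis and cytokinesis. They are 37 of 39 listed pig symbols, found in a table of 25880 genes measured by RNA sequencing of the left ventricle of young pigs with an infarct or with sham surgery. A member is a row of the count table whose gene identifier has a listed symbol. The list itself was drawn up with earlier results of these data known, and the rule that finds its genes in the table uses no measured value. The remaining listed genes, the cyclin CCNA2 and the kinase AURKA, are not analysed here. All 37 members had at least 1 read in each of the 36 libraries, and all 37 passed the filter on low counts, so none was lost to it.

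The series holds 24 Yorkshire-landrace pigs. In 12 of them, branches of the left anterior descending and circumflex coronary arteries were tied off for good, and 12 had sham surgery. Surgery was done on day 2 of life (Young) or day 14 (Old), and the heart was taken 1 day later (Early) or 1 week later (Late). The labels name ketoprofen and enrofloxacin as the drugs the pigs were given, and no genotype beyond the breed. At harvest a pig was therefore 3 days old if Young Early, 9 if Young Late, 15 if Old Early and 21 if Old Late. Tissue came from infarct zone (IZ) and border zone (BZ) of infarcted hearts and from the anterior left ventricular wall of sham hearts. This makes 12 groups of 3 libraries, in which the libraries of a group come from 3 pigs and the IZ and BZ of a block come from the same 3 pigs. An anterior wall biopsy is a mixture of cell types, and in such bulk RNA fewer cells of a type and less RNA per cell cannot be told apart.

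Entry into mitosis is driven by the kinase CDK1 bound to a B-type cyclin. The spindle checkpoint then holds the chromosomes until each kinetochore is attached to spindle microtubules, and the anaphase-promoting ubiquitin ligase releases them by marking cyclin B and securin for destruction. Motor proteins and bundling proteins build the central spindle, and a ring at the cell equator closes to separate the daughter cells. In the mammalian heart most muscle cells leave the cell cycle soon after birth, and a last round of division without cytokinesis leaves many of them with more than 1 nucleus. The transcripts of these genes are made mainly in late S, G2 and M phase, so in tissue they are commonly read as a sign of cycling cells of any type.

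By role the members are CDK1 with 2 B-type cyclins, 6 mitotic kinases, 2 parts of the anaphase ubiquitin ligase machinery, 2 genes of chromosome structure, 7 genes of the centromere and kinetochore, 10 spindle motors and microtubule proteins, and 7 genes of the central spindle and cytokinesis. They lie on 17 autosomes and the X chromosome of the deposited annotation, whose build the file does not name, and each overlaps the span of the gene of that symbol in RefSeq's current pig annotation. Overlap does not mean equal spans. That of CDK1 is 81.7 kb against 21.3 kb in RefSeq, and that of AURKB 4.46 kb against 15.3 kb. CDK1 is on chromosome 14 (64233816 to 64315526, plus strand), CCNB1 on chromosome 16 (47338072 to 47349846, plus strand), TOP2A on chromosome 12 (22001436 to 22031112, plus strand), AURKB on the same chromosome (53410969 to 53415427, minus strand) and ECT2 on chromosome 13 (111248272 to 111312835, plus strand). Counts are summed over the exons of each gene, untranslated parts included where the annotation has them. For 9 members some exon bases are shared with another gene, most for CDC20, which shares 4348 of 5397 bases with ELOVL1 on the opposite strand. The strand setting of the counting is not given in the sources used here, so the counts of these 9 members are uncertain. Counts over the 28 members that share no base are given for the Late IZ and BZ comparisons with sham.

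The median library held 22.555 M counts (lowest 8.11 M, highest 39.79 M), and the members together took from 2251 to 33521 reads of a library. The library with 8.11 M counts and 2251 member reads was Young Late Sham 2, a sham of the Young Late comparisons. RNA integrity numbers ran from 6.3 to 8.4. No pair of libraries held identical values. The library Young Early BZ 2 stood apart, with the highest total and members at opposite ends: ANLN at 1.74 and BUB1B at 0.565 CPM (read counts divided by library size, the unit of all levels given here) but CDC20 at 62.5 and BIRC5 at 38.4. Of the muscle markers, the summed level of 8 matched cardiomyocyte genes was 105298 to 123819 CPM in Young Early shams. TNNI3, MYH7, TTN and PLN were not matched.

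The level of the gene set was taken as the mean log2 CPM over the 37 members. In the 3-day-old shams it was 2.50, 2.62 and 2.10, and in the 15-day-old shams 3.50, 3.23 and 3.16. In the 9-day-old shams it was 3.83, 2.50 and 1.86, and in the 21-day-old shams 2.59, 3.77 and 1.99. The sham groups of the Late pigs were thus the widest of all 12 groups, and in each a single library was high, Young Late Sham 1 and Old Late Sham 2. Young Late Sham 1 and Young Late Sham 3, the highest and lowest of their group, were prepared in the same library batch. In Young Late IZ the level was 4.92, 4.57 and 4.65 and in Young Late BZ 4.41, 4.54 and 4.51, above every sham library of any age. In Old Late IZ it was 4.03, 3.56 and 4.08 and in Old Late BZ 3.54, 3.92 and 3.49, which overlapped Old Late Sham 2. One day after surgery the level was 2.69, 2.91 and 3.45 in Young Early IZ, above the Young Early shams. In Old Early IZ it was 3.16, 3.43 and 3.06, within or below the range of its shams.

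**Figure D1:**
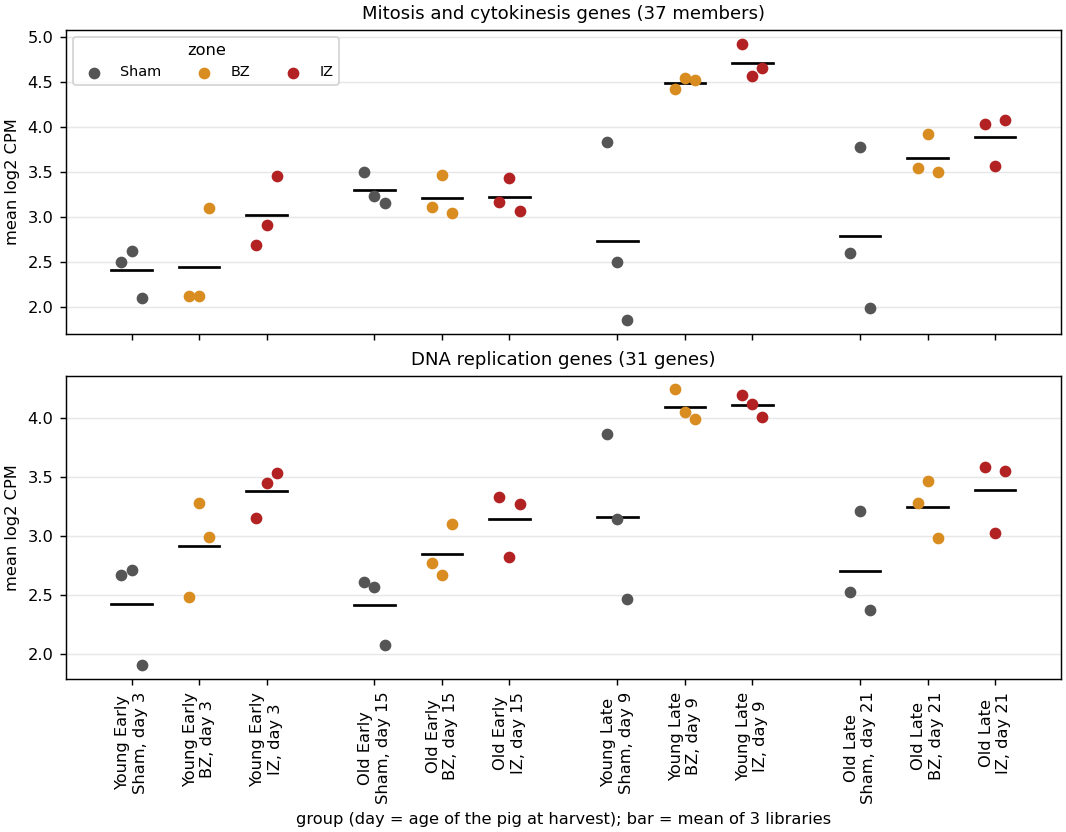
Level of the mitosis and cytokinesis genes (upper panel, 37 members) and of DNA replication genes (lower panel, 31 genes) in each library, as mean log2 CPM. Each point is 1 library, colours mark the zone and the bar is the mean of 3 libraries; the 6 Young Late IZ and BZ libraries lie between 4.41 and 4.92 in the upper panel, and the Late shams are spread from 1.86 to 3.83.

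Members differ in abundance. Levels per kb divide by the exon length of the deposited gene model, whose span differs from that of RefSeq for some members, AURKB among them. Per kilobase of exon, averaged over all libraries, UBE2C, which hands ubiquitin to the anaphase ligase, was the most abundant at 42.3 CPM per kb. AURKB, the kinase of the chromosomal passenger complex, followed at 18.8, its partner BIRC5 (survivin) at 13.2 and PRC1, which bundles the central spindle, at 11.1. The lowest were the motor KIF18A at 0.348 and ECT2, which activates RhoA at the cleavage plane, at 0.431 CPM per kb. The order was not the same in every group: ECT2 was below KIF18A in Young Late IZ (0.452 against 0.679), and PRC1 above BIRC5 in Old Early shams (9.73 against 7.60).

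The largest departure from sham was in the IZ of pigs operated on at 2 days and examined a week later. Of the 37 members 36 rose and none fell in Young Late IZ, at an adjusted p under 0.05 (edgeR quasi-likelihood test, Benjamini-Hochberg over 14537 genes). Among all genes tested 17.2% rose. The median change of the members was a log2 fold change of 1.70 (3.253-fold), and that of all genes 0.03. In 36 members all 3 IZ libraries lay above all 3 shams, against 25.9% of all genes. Among the 28 members that share no exon base, 27 rose.

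CDK1, the kinase that starts mitosis, stood at 65.5, 50.4 and 48.2 CPM in Young Late IZ. In the Young Late shams it was at 21.9, 9.998 and 4.19. Its log2 fold change was 2.16 ± 0.48 (standard error, SE; adjusted p = 0.00114), with no overlap between the groups. CCNB1, the cyclin that binds CDK1, was at 63.7, 46.9 and 40.1 CPM against 28.6, 15.3 and 5.83 in the shams. It rose by 1.59 ± 0.43 (adjusted p = 0.006462), and CCNB2, the second B-type cyclin, by 2.07 ± 0.42. The 3 genes of this role had a median of 2.07.

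All 6 mitotic kinases rose, with the smallest changes of the roles (median 1.39). PLK1, which matures centrosomes and acts again at cytokinesis, was at 48.7, 31.9 and 33.7 CPM against 26.3, 9.998 and 8.51 in the shams (1.33 ± 0.39, adjusted p = 0.01124). AURKB was at 52.2, 49.3 and 51.9 CPM against 34.9, 19.7 and 8.10 (1.28 ± 0.39, adjusted p = 0.01266). The spindle checkpoint kinase BUB1 was at 26.8, 20.4 and 18.4 CPM against 14.9, 4.80 and 3.64 (1.45 ± 0.43, adjusted p = 0.01148). In each of these kinases every IZ library lay above every sham, and the nearest sham was Young Late Sham 1. The checkpoint kinase TTK rose by 1.60 ± 0.38 and BUB1B by 1.53 ± 0.52.

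CDC20, which activates the anaphase ligase, and UBE2C rose by 1.79 ± 0.55 and 1.66 ± 0.46. TOP2A, the topoisomerase that untangles sister chromatids, was at 69.3, 52.7 and 58.0 CPM against 30.5, 14.5 and 10.8 in the shams (1.68 ± 0.38, adjusted p = 0.001592). NCAPG, a condensin subunit, rose by 1.99 ± 0.41.

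All 7 centromere and kinetochore genes rose, with a median of 1.99. SPC25, NUF2 and NDC80 are 3 of the 4 subunits of the complex that holds the microtubule end. SPC25 had the largest change of all members, at 7.50, 8.39 and 9.33 CPM against 2.85, 1.20 and 0.961 in the shams (2.24 ± 0.38, adjusted p = 7.856e-05). NUF2 rose by 2.03 ± 0.35 and NDC80 by 2.00 ± 0.38. BIRC5, which targets AURKB to the centromere and midzone, was at 59.6, 54.1 and 48.8 CPM against 32.9, 11.6 and 5.49 (1.68 ± 0.51, adjusted p = 0.01292). The centromeric histone CENPA rose by 1.99 ± 0.53.

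All 10 spindle motors and microtubule proteins rose, from 1.12 ± 0.28 for the microtubule binder NUSAP1 to 2.10 ± 0.55 for KIF18A. KIF18A had few reads in the shams, with 0.133 CPM in Young Late Sham 2, the library of lowest depth. KIF11, the motor that pushes spindle poles apart, rose by 2.03 ± 0.42, and TPX2, which nucleates spindle microtubules, by 1.59 ± 0.43.

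Of the 7 genes of the central spindle and cytokinesis 6 rose. KIF23, a motor subunit of centralspindlin, was at 46.4, 38.97 and 47.9 CPM against 22.9, 8.13 and 4.60 in the shams (1.87 ± 0.47, adjusted p = 0.003363). RACGAP1, its partner, rose by 1.78 ± 0.38. ANLN (anillin), the scaffold of the contractile ring, was at 45.6, 29.6 and 46.4 CPM against 14.6, 10.3 and 5.97 (1.97 ± 0.47, adjusted p = 0.002032). KIF20A, which carries the passenger complex to the midzone, was at 70.7, 52.7 and 52.1 CPM against 49.5, 12.7 and 6.80, a rise near the threshold (1.33 ± 0.50, adjusted p = 0.04301). ECT2 alone was not called, at 4.12, 1.62 and 4.27 CPM in Young Late IZ and 2.90, 1.47 and 2.68 in the shams (0.45 ± 0.58, adjusted p = 0.5883).

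How many of these calls held depended on single libraries. Without Young Late Sham 3, the lowest library, 24 members were called and the median was 1.37. Without Young Late Sham 1, the highest, 36 were called and the median was 2.50. Without Young Late IZ 1 29 were called, and the 7 lost were PLK1, BUB1, BUB1B, CDC20, KIF2C, CKAP2 and KIF20A. The 24 members that kept their call without each library in turn and under each other setting tried include CDK1, both B-type cyclins, TOP2A, SPC25, KIF23 and ANLN. Among the 12 that lost it in at least 1 fit were 5 of the 6 kinases (PLK1, AURKB, BUB1, BUB1B and MELK), CDC20, UBE2C, BIRC5 and KIF20A. Library batch differs within this block, and with batch as a term 35 members were called with a median of 1.71. In 30 members every Young Late IZ library lay above all 12 shams of the study, against 12.5% of all genes.

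Markers of other cell types moved in the same samples. All 11 macrophage genes rose in Young Late IZ, where their summed level was 670 to 908 CPM against 73.7 to 84.8 in the shams. Of 10 fibroblast genes 8 rose, with a sum of 4682 to 7922 CPM against 883 to 1395. Of 8 cardiomyocyte genes 4 fell, with a sum of 60038 to 81686 CPM against 80043 to 118177. Among the defining markers CD3D was at 0 in all Young Late shams. The part of any cell type in the result was not tested.

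**Figure D2:**
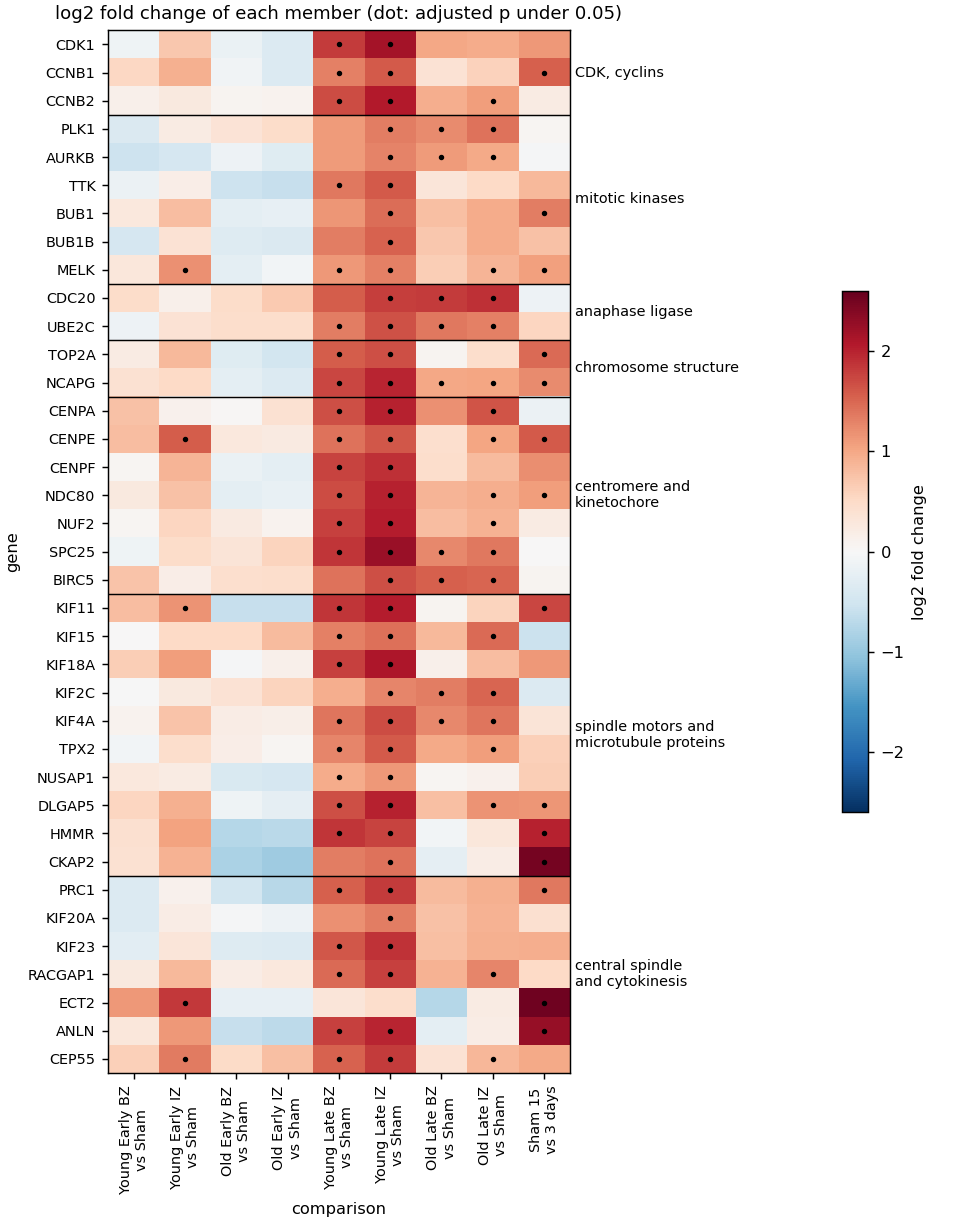
Log2 fold change of each of the 37 members (rows, grouped by role) in 9 comparisons (columns): BZ and IZ against sham in the 4 age and time blocks, and 15-day against 3-day shams. Red is higher and blue lower in the group named first, and a dot marks an adjusted p under 0.05; 36 dots stand in the Young Late IZ column and none in the Old Early columns.

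The border zone of the same Young Late pigs followed. In Young Late BZ 27 members rose and none fell, while 8.25% of all genes rose, and the median of the members was 1.48 (2.782-fold). CDK1 was at 40.3, 45.8 and 42.3 CPM, a rise of 1.81 ± 0.47 (adjusted p = 0.01151). ANLN was at 31.01, 34.6 and 40.2 CPM and rose by 1.77 ± 0.46. PLK1, AURKB, BUB1 and BIRC5 did not pass, at 1.11 ± 0.39, 1.11 ± 0.38, 1.15 ± 0.43 and 1.41 ± 0.50, although their 3 libraries lay above all 3 shams. In 34 members the BZ libraries lay above all 3 shams, against 18.2% of all genes. Among the 28 members that share no exon base, 21 rose. The IZ and BZ comparisons share their shams. The count was 6 without Young Late Sham 2, 7 without Young Late Sham 3 and 36 without Young Late Sham 1. The members NDC80, NUF2, SPC25, KIF11 and HMMR kept their call in every fit. In the same BZ libraries 9 of 11 macrophage genes rose, to a sum of 201 to 561 CPM, and 6 of 10 fibroblast genes, to 1892 to 5060 CPM, while 3 of 7 endothelial and 2 of 8 cardiomyocyte genes fell. Their part in the result was not tested.

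Within the Young Late pigs the zones were not separated. In the comparison of IZ with BZ of the same pigs, with the animal as a block, 0 members were called, and 0.0% of all genes were called higher. By an unadjusted p under 0.05 edgeR called 1 member, beside 9.97% of all genes, and the DESeq2 test called 0. The median was 0.23, and 18 members were higher in IZ in all 3 pigs, against 19.8% of all genes. CDK1 was higher in IZ by 0.33 ± 0.25, with 65.5, 50.4 and 48.2 CPM in the IZ and 40.3, 45.8 and 42.3 in the BZ of the same pigs.

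In pigs operated on at 14 days, the IZ a week later had 20 members that rose and none that fell, beside 25.1% of all genes. The median was 0.96 (1.948-fold), and all 37 members had a fold change above 0. In 9 members all 3 IZ libraries lay above all 3 shams, a share no larger than the 29.3% of all genes. Among the 28 members that share no exon base, 15 rose.

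The largest change was that of CDC20, at 78.2, 22.5 and 45.1 CPM in Old Late IZ and 11.6, 19.2 and 8.40 in the shams (1.90 ± 0.55, adjusted p = 0.0058). CDC20 shares 4348 of its 5397 exon bases with ELOVL1, so its counts and its place as the largest change are uncertain. PLK1 was at 23.6, 10.1 and 17.997 CPM against 5.99, 9.04 and 4.37 and rose by 1.42 ± 0.40 (adjusted p = 0.004296). SPC25 was at 5.70, 3.18 and 4.04 CPM against 1.42, 2.70 and 0.892 and rose by 1.37 ± 0.36 (adjusted p = 0.002668). In these 3 genes no IZ library fell within the range of the shams. BIRC5 was at 27.1, 11.9 and 18.7 CPM against 5.99, 10.03 and 4.08 and rose by 1.52 ± 0.51 (adjusted p = 0.01547). AURKB was at 26.8, 9.70 and 15.9 CPM against 8.26, 12.8 and 5.21, a rise of 0.99 ± 0.39 (adjusted p = 0.03464) with overlapping libraries.

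Other members had smaller changes that were not called. CDK1 was at 29.5, 12.7 and 23.2 CPM against 7.94, 20.5 and 4.93 (0.97 ± 0.46, adjusted p = 0.08181), with Old Late Sham 2 above Old Late IZ 2. TOP2A was at 32.4, 41.6 and 48.9 CPM against 21.4, 55.0 and 13.5 (0.45 ± 0.37, adjusted p = 0.3222). ANLN was at 25.6, 30.6 and 38.1 CPM against 20.9, 47.9 and 13.7 (0.20 ± 0.44, adjusted p = 0.731). For TOP2A and ANLN the highest library of both groups was a sham. CCNB1 was at 25.0, 18.3 and 25.9 CPM against 12.3, 26.0 and 7.23 (0.61 ± 0.42, adjusted p = 0.2387). KIF23 was at 24.7, 14.7 and 23.6 CPM against 7.41, 20.5 and 5.35 (0.92 ± 0.46, adjusted p = 0.09569). BUB1 was at 13.3, 8.57 and 14.9 CPM against 4.82, 11.5 and 2.63 (0.97 ± 0.42, adjusted p = 0.059). KIF20A was at 37.9, 27.0 and 36.8 CPM against 14.1, 31.9 and 8.83 (0.89 ± 0.49, adjusted p = 0.1327). In each of these genes Old Late Sham 2 lay inside or above the range of the IZ.

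By role, 6 of the 7 kinetochore genes rose in Old Late IZ, 3 of the 6 kinases, both anaphase ligase genes, 5 of the 10 spindle genes, and 2 of the 7 genes of cytokinesis, RACGAP1 and CEP55. RNA integrity did not overlap between the groups, at 7.1 to 7.6 in Old Late IZ and 7.8 to 8.4 in its shams. With it as a covariate 16 members were called, and 7 of the 20 lost their call: CCNB2, AURKB, UBE2C, NCAPG, NUF2, BIRC5 and TPX2. The number depended on a sham library in each direction. It was 32 with a median of 1.71 without Old Late Sham 2, 8 without Old Late Sham 1 and 5 with a median of 0.61 without Old Late Sham 3. It was 12 without Old Late IZ 1 and 13 without Old Late IZ 3. PLK1, CDC20, SPC25, KIF15 and KIF4A kept their call in every fit. For CENPA, SPC25 and KIF15 every Old Late IZ library lay above all 12 shams of the study, while 16.6% of all genes did so.

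In the same Old Late IZ samples all 10 fibroblast genes rose, to a sum of 17056 to 21013 CPM from 1345 to 1651 in the shams, and 10 of 11 macrophage genes, to 789 to 1176 CPM from 125 to 185. Of 8 cardiomyocyte genes 7 fell, to 22939 to 35371 CPM from 84118 to 94814. The neutrophil gene S100A8 was at 0 in all Old Late shams. The part of these shifts in the result was not tested.

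**Figure D3:**
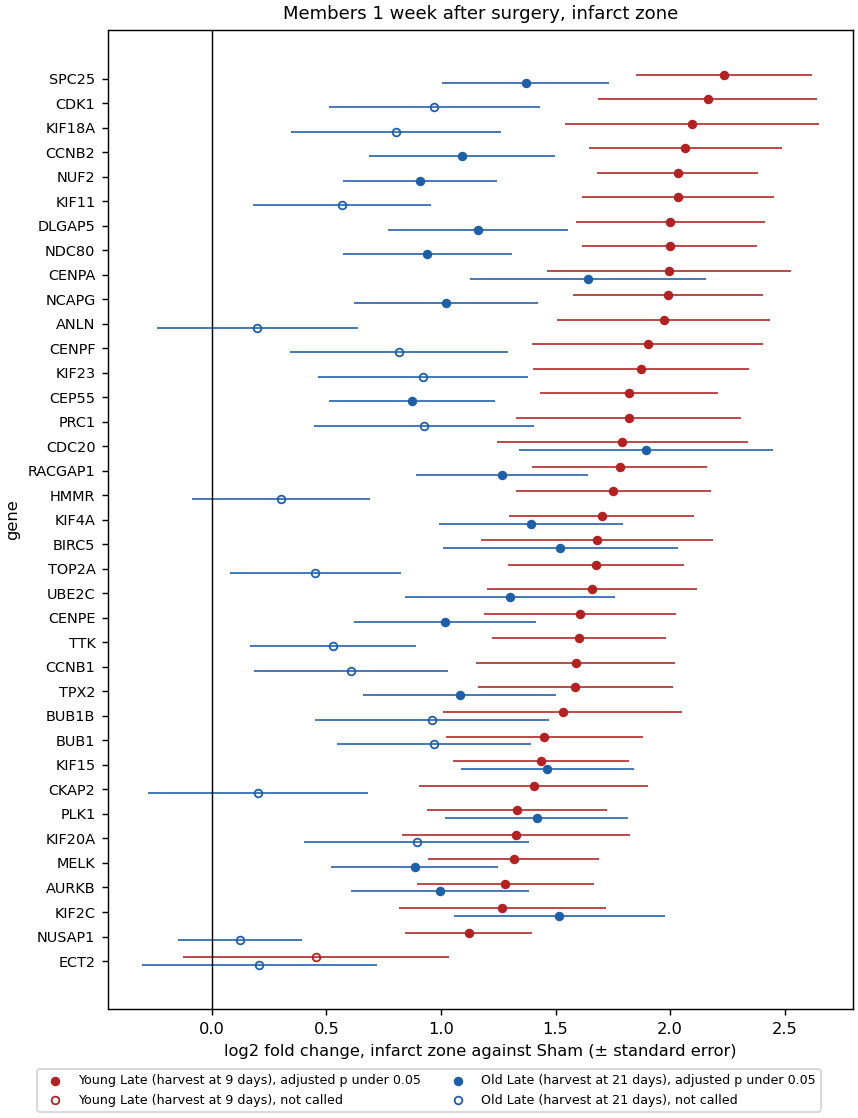
Log2 fold change of each member in the IZ 1 week after surgery against the sham group of the same age, with standard errors, for Young Late (red) and Old Late (blue) pigs. Filled points have an adjusted p under 0.05; all 37 red and all 37 blue points lie above 0, and the red points run from 0.45 (ECT2) to 2.24 (SPC25).

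In Old Late BZ 9 members rose and none fell, where 20.0% of all genes rose, so the count is near that share. They were PLK1, AURKB, CDC20, UBE2C, NCAPG, SPC25, BIRC5, KIF2C and KIF4A. The median of the members was 0.79 (1.724-fold), and that of all genes −0.03. Of the 37 members 33 had a fold change above 0. Among the 28 members that share no exon base, 6 rose. CDC20 was again first, at 45.2, 62.7 and 30.6 CPM, a rise of 1.82 ± 0.55 (adjusted p = 0.01046). Its counts are uncertain here too, because of the exon bases it shares with ELOVL1. AURKB was at 20.4, 23.4 and 13.2 CPM and rose by 1.12 ± 0.39 (adjusted p = 0.02351), with each BZ library above each sham. That held for 8 members, a smaller share than the 30.3% of all genes. ANLN was at 19.2, 26.3 and 23.8 CPM (−0.25 ± 0.44, adjusted p = 0.6751). None of the 9 calls held in every fit: the count was 0 without Old Late Sham 3, 2 without Old Late Sham 1, 4 without Old Late BZ 2, 6 without Old Late BZ 1 and 27 without Old Late Sham 2. In these BZ libraries 9 of 10 fibroblast genes rose, to 7524 to 16195 CPM, and 9 of 11 macrophage genes, to 400.4 to 1025 CPM, and 4 of 8 cardiomyocyte genes fell, with no test of their part in the result. Between IZ and BZ of the Old Late pigs 0 members were called, beside 0.438% of all genes called higher and 1.61% lower. At an unadjusted p under 0.05 in edgeR there were 6 members, beside 20.5% of all genes, and the DESeq2 test called 1. In 12 members IZ exceeded BZ in all 3 pigs and in 0 it was lower in all 3, against 23.9% and 25.4% of all genes.

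Whether the response a week after injury depends on age was tested as the difference of the responses, Old minus Young, in 1 contrast of 4 groups. For Late IZ no member was called in edgeR, where 2.35% of all genes were called lower. At an unadjusted p under 0.05 there were 7 members, beside 20.6% of all genes, so that count is near the share of all genes. Limma-voom and the DESeq2 test called 0 each. The median of the members was −0.87, and 33 of 37 were below 0. ANLN had the smallest adjusted p, with a difference of −1.77 ± 0.63 (adjusted p = 0.1019), followed among the largest differences by KIF11 at −1.46 ± 0.57 and HMMR at −1.45 ± 0.57. CDK1 was at −1.19 ± 0.65 and TOP2A at −1.22 ± 0.53. PLK1, CDC20 and KIF15 were near 0, at 0.09 ± 0.55, 0.10 ± 0.76 and 0.03 ± 0.52.

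The precision of this contrast is low. In simulated counts with known changes it recovered 7.29% of 96 differences of 1 on the log2 scale and 52.5% of 99 differences of 2. The simulation changed fewer genes than were called in the data. It also gave each gene the same spread in all groups, without the wide Late shams. Its rates therefore need not hold for these members. A lack of calls does not show equal responses. The median moved to −1.62 with 6 members called without Young Late Sham 1, to −0.16 without Old Late Sham 2 and to −0.53 without Young Late Sham 3. In Late BZ 0 members were called in edgeR, 0 in limma-voom and 2 by the DESeq2 test, beside 0.344% of all genes called lower in edgeR. At an unadjusted p under 0.05 there were 8 members, beside 17.6% of all genes. The median of the members was −0.76. Without Old Late Sham 2 that median was −0.03.

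One day after surgery the members separated less from sham. In Young Early IZ 5 members rose and none fell, where 15.2% of all genes rose, so the count is near that share. At an unadjusted p under 0.05 there were 11 members, beside 39.6% of all genes. The median of the members was 0.56 (1.476-fold), that of all genes was 0.08, and 36 of 37 members were above 0. ECT2 was at 2.85, 1.12 and 4.42 CPM against 0.571, 0.893 and 0.963 in the shams, a rise of 1.84 ± 0.63 (adjusted p = 0.03126). The kinetochore motor CENPE rose by 1.58 ± 0.43, the abscission protein CEP55 by 1.35 ± 0.41, the kinase MELK by 1.18 ± 0.39 and KIF11 by 1.16 ± 0.42. CDK1 was at 8.48, 11.0 and 13.0 CPM against 6.45, 8.25 and 5.23, all above the shams but not called (0.70 ± 0.47, adjusted p = 0.2776). ANLN was at 8.63, 5.25 and 15.1 CPM against 3.54, 6.41 and 3.44 (1.12 ± 0.47, adjusted p = 0.07575). AURKB was at 7.21, 12.0 and 11.5 CPM against 16.3, 14.1 and 11.1 (−0.44 ± 0.39, adjusted p = 0.4129). None of the 5 calls held in every fit: the count was 1 without Young Early IZ 3, 1 without Young Early Sham 3, 2 without Young Early Sham 1 and 3 without Young Early Sham 2. In 15 members the 3 IZ libraries lay above the shams, against 25.5% of all genes. In Young Early IZ 6 of 8 cardiomyocyte genes fell, to a sum of 29164 to 48705 CPM from 105298 to 123819. All 4 neutrophil genes tested rose, to 22.5 to 36.7 CPM from 0.21 to 0.68, as did 6 of 11 macrophage and 5 of 10 fibroblast genes. The part of these shifts in the result was not tested.

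Within the Young Early pigs 8 members were higher in IZ than in BZ of the same pigs, and none lower, beside 4.03% of all genes higher and 6.68% lower. CDK1 was at 8.48, 11.0 and 13.0 CPM in IZ and at 4.18, 2.96 and 11.3 in BZ of the same pigs, a difference of 1.00 ± 0.27 (adjusted p = 0.0372). ANLN was higher by 0.94 ± 0.25, MELK by 0.87 ± 0.22, CENPE by 0.84 ± 0.21, CEP55 by 0.75 ± 0.21, RACGAP1 by 0.64 ± 0.17, TOP2A by 0.62 ± 0.16 and TPX2 by 0.57 ± 0.16. In 26 members IZ exceeded BZ in all 3 pigs, against 27.8% of all genes. No member was called without the animal block, without the first pig or without the pig whose BZ library stands apart, Young Early BZ 2. In Young Early BZ against sham edgeR called 0 members, limma-voom and DESeq2 0 each, and none had an unadjusted p under 0.05, beside 0.784% of all genes called higher. In 1 member the 3 BZ libraries lay above the shams, against 8.01% of all genes.

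In Old Early IZ edgeR, limma-voom and DESeq2 called 0 members, in a comparison where 19.5% of all genes rose and 14.8% fell. Beside 44.2% of all genes, 2 members had an unadjusted p under 0.05. The median was −0.20, from CKAP2 at −0.92 ± 0.49 to KIF15 at 0.82 ± 0.38. CDK1 was at 10.8, 14.1 and 9.58 CPM against 16.2, 14.6 and 13.1 in the shams, and TOP2A at 21.8, 27.0 and 20.7 against 38.0, 31.6 and 26.8. ANLN was at 10.6, 19.6 and 10.5 CPM against 23.6, 19.9 and 21.6 (−0.68 ± 0.45, adjusted p = 0.244). Those 3 genes were near or below their shams, while PLK1 was at 16.8, 12.4 and 13.5 CPM against 13.9, 7.91 and 8.91 (0.47 ± 0.39, adjusted p = 0.359). Marker levels shifted in Old Early IZ as well. The cardiomyocyte genes summed to 27823 to 46265 CPM against 76474 to 85201 in the shams, and the fibroblast genes to 3346 to 3831 against 1135 to 1777. Sums of the macrophage genes were 268 to 645 CPM against 161 to 228, and of the neutrophil genes 34.6 to 299 against 0.36 to 1.01. The part of these shifts in the result was not tested. Old Early BZ had 0 called in edgeR, limma-voom and DESeq2, with a median of −0.11, beside 14.1% of all genes called higher and 8.46% lower. There 0 members had an unadjusted p under 0.05, beside 35.2% of all genes. The IZ and BZ of the Old Early pigs had 0 members called by edgeR or DESeq2, beside 0.0% of all genes called. At an unadjusted p under 0.05 there were 0 members, beside 6.45% of all genes.

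For the difference of the early IZ responses, Old minus Young, edgeR and limma-voom called 0 members and DESeq2 1. In edgeR 0.378% of all genes were called lower and 0.537% higher. An unadjusted p under 0.05 was found for 26.3% of all genes and for 10 members, a count near that share. The median was −0.77. KIF11 had the smallest adjusted p (−1.77 ± 0.57, adjusted p = 0.0822), and ECT2 the largest difference (−2.06 ± 0.82, adjusted p = 0.125). For early BZ 0 members were called in edgeR, limma-voom and DESeq2, with a median of −0.21 and 0.0825% of all genes called lower. At an unadjusted p under 0.05 there was 1 member, beside 18.1% of all genes. Each of these differences draws on the Young Early and Old Early shams, whose own levels differ as given next.

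Uninjured hearts differed with age at harvest. From 3 to 15 days 14 members were higher in sham hearts and none was lower, beside 17.5% of all genes called higher, with a median of 0.95. In 23 members every 15-day sham lay above every 3-day sham, against 28.9% of all genes. ECT2 was at 4.79, 4.37 and 4.89 CPM at 15 days and 0.571, 0.893 and 0.963 at 3 days (2.53 ± 0.63, adjusted p = 0.00589). ANLN was at 23.6, 19.9 and 21.6 CPM and 3.54, 6.41 and 3.44 (2.27 ± 0.48, adjusted p = 0.0026). The spindle protein CKAP2, named after its values were seen, was at 18.8, 15.9 and 17.7 CPM and 2.85, 4.04 and 2.34 (2.49 ± 0.53, adjusted p = 0.00284). In these 3 genes the 15-day shams were all several times the 3-day shams.

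Other members hardly differed between these shams. AURKB was at 15.1, 15.2 and 10.5 CPM at 15 days and 16.3, 14.1 and 11.1 at 3 days (−0.03 ± 0.39). SPC25 was at 2.39, 2.76 and 1.41 CPM and 2.17, 2.52 and 1.72 (0.01 ± 0.39). BIRC5 was at 15.7, 10.4 and 9.78 CPM and 13.6, 12.6 and 7.84 (0.07 ± 0.51). KIF15, the spindle motor, was lower in every 15-day sham (−0.55 ± 0.39, adjusted p = 0.275). Of the 14 genes that rose with age in shams 5 also rose in Old Late IZ (35.7% of the 14 and 25.0% of the 20): CENPE, DLGAP5, MELK, NCAPG and NDC80. Of the 23 others 15 rose in Old Late IZ. These comparisons share no library.

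All Young Early libraries were prepared in batch 1 and all Old Early libraries in batch 2, so age and batch cannot be told apart in these shams alone, and with a batch term carried by the mixed Young Late libraries 5 members were called. RNA integrity was 6.4 to 6.9 in the 3-day shams and 7.1 to 7.6 in the 15-day shams, and with it as a covariate 5 were called. KIF11, HMMR, CKAP2, ECT2 and ANLN kept their call in every fit.

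Transcript length moved with this sham difference. Exon length of the members ran from 0.837 to 9.227 kb with a median of 5.127 kb. The 18 members longer than the median had a median change of 1.11 from 3 to 15 days, and 9 of them were called. The 19 others had a median of 0.56 with 5 called. Across all genes the median was −0.25 in the lowest quartile of length and 0.26 in the highest. With the trend of level on gene length removed from each library, 9 members were called, and the median was 0.80 from 3 to 15 days. In Young Late IZ the long and short members did not separate, with medians of 1.69 and 1.75, and 36 were called with the trend removed. In Old Late IZ the medians were 0.97 and 0.93, and 24 were called with it removed.

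**Figure D4:**
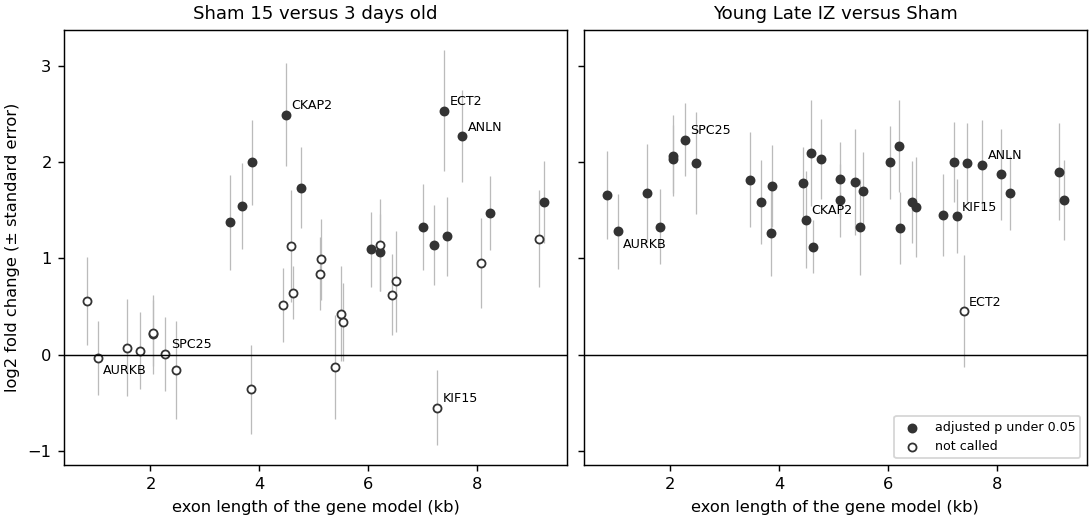
Log2 fold change (with standard error) of each member against the exon length of its gene model in kb, for 15-day against 3-day shams (left) and for Young Late IZ against sham (right). Filled points have an adjusted p under 0.05; on the left the shortest 8 members lie between −0.16 (CENPA) and 0.56 (UBE2C) while CKAP2, ANLN and ECT2 lie above 2, and on the right long and short members overlap.

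Later sham comparisons turned on the wide Late groups. All 21-day shams were prepared in batch 3, the 15-day shams in batch 2 and the 9-day shams in batches 1 and 2. Age and batch therefore cannot be told apart in the comparisons with 21-day shams. RNA integrity did not overlap in them either, at 7.8 to 8.4 at 21 days, 7.1 to 7.6 at 15 days and 6.6 to 7.6 at 9 days. From 9 to 21 days ANLN was called higher (1.41 ± 0.46) and AURKB and PLK1 lower (−1.26 ± 0.39 and −1.23 ± 0.40), beside 6.98% and 3.91% of all genes. AURKB was at 8.26, 12.8 and 5.21 CPM at 21 days and 34.9, 19.7 and 8.10 at 9 days, so the groups overlapped, and in no member were they apart. The median was −0.13, but 0.70 without Young Late Sham 1 and −0.82 without Old Late Sham 2. None of the 3 calls held in every fit. From 3 to 9 days only CCNB1 was called (1.39 ± 0.45, adjusted p = 0.0491), beside 4.38% of all genes, and it was lost in several fits. From 15 to 21 days edgeR, limma-voom and DESeq2 called 0 members, beside 0.0206% of all genes called higher. There 0 members had an unadjusted p under 0.05, beside 9.62% of all genes.

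Between 1 day and 1 week the IZ response of Young pigs grew for 4 members, beside 6.12% of all genes. The difference, Late minus Early, was 1.81 ± 0.58 for CCNB2, 1.75 ± 0.53 for SPC25, 1.72 ± 0.55 for AURKB and 1.47 ± 0.49 for NUF2. The AURKB libraries overlapped the 3-day shams at 1 day and lay above the 9-day shams at 1 week. The median of all members was 1.07, and 36 of 37 were above 0, with ECT2 at −1.39 ± 0.86. In Old pigs the median was 1.03 and all 37 were above 0, but edgeR, limma-voom and DESeq2 called 0, beside 2.94% of all genes. At an unadjusted p under 0.05 there were 8 members, beside 17.3% of all genes. In Young pigs 24 members were called without Young Late Sham 1 and 0 without, for example, Young Late Sham 3. In Old pigs 7 were called without Old Late Sham 2.

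Genes of DNA replication, the step before mitosis, were read in the same way. Of 31 tested, 14 rose in Young Early IZ and none fell, with a median of 0.97, and 13 rose and none fell in Old Early IZ with a median of 0.75. One week after surgery 10 rose in Young Late IZ (median 0.77) and 13 in Old Late IZ (median 0.57), and none fell. The rises stand beside 15.2% of all genes in Young Early, 19.5% in Old Early, 25.1% in Old Late and 17.2% in Young Late IZ. The members stood at 5 and 0 of 37 at 1 day and at 36 and 20 of 37 at 1 week in the same comparisons. MCM6, a subunit of the replicative helicase, was at 24.8, 18.3 and 34.4 CPM in Young Early IZ and 6.85, 8.14 and 5.50 in the shams (1.92 ± 0.29, adjusted p = 4.8e-05). GINS4, which joins that helicase, was at 10.7, 5.94 and 8.15 CPM in Old Early IZ and 2.18, 2.50 and 1.95 in the shams (1.90 ± 0.42, adjusted p = 0.000841). In both genes the zone and the shams did not overlap, while CDK1 was not called in either comparison. The difference between the lists was not tested.

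**Figure D5:**
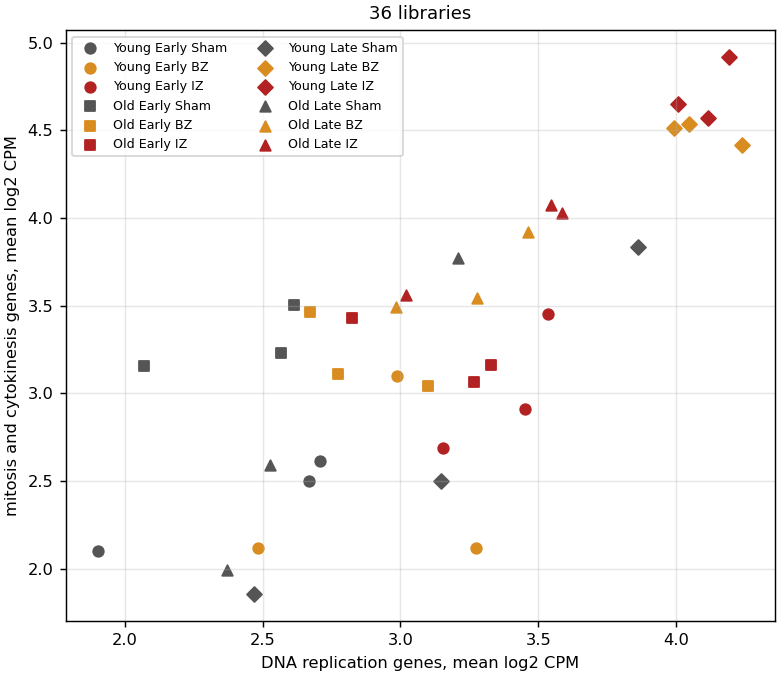
Level of the mitosis and cytokinesis genes (vertical axis, mean log2 CPM of 37 genes) against that of DNA replication genes (horizontal axis, mean log2 CPM of 31 genes) in each of the 36 libraries. Colour marks the zone and shape the age and time; the Young Late IZ and BZ libraries lie at the upper right, and the 3 Old Early shams have replication levels of 2.07 to 2.61 with mitosis levels of 3.16 to 3.50.

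The other genes of the pathway were read from lists of the same kind. Of 44 further mitosis genes 29 rose in Young Late IZ and none fell, with a median of 1.18 beside 0.03 over all genes. In Old Late IZ 18 rose and 2 fell, in Young Early IZ 4 rose and 2 fell, and in Old Early IZ 2 rose. Of all genes 17.2% rose in Young Late, 25.1% in Old Late, 15.2% in Young Early and 19.5% in Old Early IZ. In the same order 13.0%, 24.0%, 12.0% and 14.8% fell. The counts that rose in the Early IZ are thus below the share of all genes. CKS2, a small subunit of the CDK1 complex, was at 93.5, 77.5 and 78.2 CPM in Young Late IZ and 34.7, 12.3 and 6.04 in the shams (2.21 ± 0.44, adjusted p = 0.000451). In Old Late IZ the passenger complex subunit CDCA8 was at 16.1, 8.23 and 12.2 CPM against 2.39, 4.37 and 2.16 (2.04 ± 0.46, adjusted p = 0.000596). Neither gene overlapped its shams.

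A list of 10 genes holds FOXM1, MYBL2 and the complexes that switch cell cycle genes on or off. MYBL2 (B-MYB) rose in all 4 IZ comparisons, by 1.29 ± 0.47 in Young Early, 1.54 ± 0.47 in Old Early, 1.82 ± 0.47 in Young Late and 2.07 ± 0.48 in Old Late. Its level in Old Early IZ was 55.3, 24.1 and 33.0 CPM against 16.3, 14.1 and 8.29 in the shams, although no member rose there. FOXM1, a transcription factor of the same gene program, was at 16.9, 14.5 and 15.0 CPM in Young Late IZ against 8.99, 3.73 and 1.44 in the shams, and rose by 1.46 ± 0.41 in Old Late IZ (9.36, 5.12 and 8.43 CPM against 2.67, 3.98 and 1.69). Of the 10 genes 3 rose in Old Late IZ and 2 in each other IZ, while 2 fell in Young Early IZ and 1 in each other IZ. E2F4, which acts with repressor proteins, rose in Old Early IZ (1.14 ± 0.20), and LIN37, a subunit of the same repressor complex, fell in Young Early IZ (−1.12 ± 0.33). Of 16 genes of G1 and S phase entry 2 rose in each Early IZ, 4 in the Late IZ of Old pigs and 3 in that of Young pigs, while none fell in Young Early IZ, 2 in Old Late IZ and 1 in each of the others. Of 8 CDK inhibitors 1 rose and none fell in Young Early IZ, 1 rose and 2 fell in Old Early IZ, and 2 rose and 1 fell in each Late IZ. CDKN1B (p27) was among those that fell in Old Early, Young Late and Old Late IZ, by 0.70, 0.88 and 1.42 on the log2 scale. Shares of all genes that rose were 15.2%, 19.5%, 17.2% and 25.1% in Young Early, Old Early, Young Late and then Old Late IZ, and 12.0%, 14.8%, 13.0% and 24.0% fell, so the counts of these 3 short lists are near the background.

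WEE1, the kinase that holds CDK1 inactive and a member of a list of 11 polyploidy and abscission regulators, was the only gene of the 6 pathway lists whose early IZ response was called different between ages (−2.12 ± 0.40, adjusted p = 0.0341). It was at 16.4, 29.9 and 14.4 CPM in Young Early IZ against 6.90, 7.51 and 6.53 in the shams. In Old Early IZ it was at 7.88, 14.3 and 11.0 CPM against 15.4, 19.8 and 15.0. The shams differed too, by 1.26 ± 0.29 from 3 to 15 days. A week after surgery it fell in Old Late IZ, to 10.8, 11.3 and 11.6 CPM from 22.1, 27.5 and 15.0 (−0.94 ± 0.28, adjusted p = 0.00676).

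Each member was compared with the mean of all members, which contains that member, so part of each Pearson r below is built in. Over the 36 libraries the Pearson r of a member with the mean of the members was highest for TPX2 (0.980), RACGAP1 (0.978), CDK1 and NDC80 (both 0.977), and lowest for ECT2 (0.466) and CENPA (0.678). These r include the differences between the 12 groups. Over deviations from the group means r was highest for RACGAP1 (0.974) and lowest for ECT2 (0.404) and CENPE (0.501). The r of all genes is not given for comparison. The genes outside the list with the highest r were CKAP2L (0.962), CCNB3 (0.958), STMN1 (0.955), NEK2 (0.946), SGO1 (0.940), CENPN (0.935), SHCBP1 (0.930), CIT (0.927), PRR11 (0.926) and KPNA2 (0.924). These values describe libraries that share groups, depth and batches. Of those 10 genes, CKAP2L, STMN1, NEK2, SGO1 and CIT are in the list of further mitosis genes.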

How the data were processed

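Stranded TruSeq mRNA libraries were sequenced on a NextSeq (paired 76 bp reads), per the labels' protocols. The tools named in the submitters' processing notes are Trimmomatic 0.36, bcl2fastq 2.19.0.316, featureCounts of Subread 1.5.1 and STAR. The genome build, annotation release and strand setting are not given in the sources used here. Per the file headers, the authors deposited integer read counts for each gene and sample, not normalized. Symbols came from a table of pig gene names that matched 14857 of 25880 identifiers. The members and gene lists were chosen with earlier results of these data known. Counts were filtered with filterByExpr (minimum count 10, minimum total 15), scaled by TMM and fitted with edgeR 4.0.16 in R 4.3.3 (quasi-likelihood, robust), over 36 libraries with 1 mean per group (24 residual degrees of freedom, 14537 genes). That fit treats both zones of a pig as independent. IZ was compared with BZ over 24 libraries with the animal as a block (8 residual degrees of freedom, 14386 genes). The labels name the pig of each library. For Old Late BZ 3 the title and the individual label name different pigs, and the title was used. Adjusted p-values are Benjamini-Hochberg over all genes tested, called under 0.05, and rose or fell is used of called genes. Levels are CPM, read counts per 1 M of TMM-scaled library size, with a prior count of 0.5 for log2 values. The 10 genes set aside for values by library were CDK1, TOP2A, CCNB1, AURKB, PLK1, BUB1, KIF20A, KIF23, ANLN and BIRC5. The members of largest and smallest change in Young Late IZ (SPC25 and ECT2) were added. Values of these genes are given in part of the comparisons only. Of the most changed called genes of each other list only some are given with values, and the genes most like the members are given by r alone. CDC20 and CKAP2 were given values in the libraries after their values were seen. The alternatives were DESeq2 1.42.0 size factors, the DESeq2 test, no count filter, the compared groups alone, RNA integrity as a covariate, batch as a term, limma-voom (limma 3.58.1) with the animal as a random block, no animal block, each library left out in turn and, chosen after seeing the data, the gene length trend removed per library. The fits were tested on simulated data. In a simulated Young Late IZ comparison over 14292 genes, 25% of 96 changes of 1 and 81.8% of 99 changes of 2 on the log2 scale were recovered. With fewer changed genes than were called in the data and the same spread in all groups, these rates need not hold for the members. Counting error limits members with few reads, such as KIF18A with 1 read in its lowest library.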

Additional observations from a re-analysis of the deposited data

Results flagged for a closer look

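Within the Young pigs the IZ response a week after surgery differed from that a day after surgery for 4 members in a test of the difference itself (edgeR quasi-likelihood test, 1 contrast of 4 groups). The difference, Late minus Early, was 1.81 for CCNB2 (adjusted p = 0.0405), 1.72 for AURKB (adjusted p = 0.0385), 1.47 for NUF2 (adjusted p = 0.0451) and 1.75 for SPC25 (adjusted p = 0.0323). AURKB was at 7.21, 12.0 and 11.5 CPM in Young Early IZ against 16.3, 14.1 and 11.1 in its shams, and at 52.2, 49.3 and 51.9 CPM in Young Late IZ against 34.9, 19.7 and 8.10. CCNB2 and NUF2, given here because their difference was called, were at 5.48, 7.97 and 10.6 CPM and at 6.56, 9.03 and 10.1 CPM in Young Early IZ. Of 12 fits that leave out 1 library, SPC25 kept its call in 3, AURKB in 3, CCNB2 in 2 and NUF2 in 1. With RNA integrity as a covariate 0 members were called for this difference.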

How the results depend on the processing

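No member called in a main fit changed direction in that comparison under any alternative run. Medians of the members were not held to this rule. Some changed sign when 1 library was left out, such as that of 21-day against 9-day shams (−0.82 to 0.70). Numbers of members called moved by more than 1.5 times as follows. With RNA integrity as a covariate they were 2 for Young Early IZ, 1 for Old Late BZ, 3 for Young Early IZ against BZ, 5 for 15-day against 3-day shams and 0 for the Young Late minus Early difference, 21-day against 9-day shams and 9-day against 3-day shams. With batch as a term they were 5 for 15-day against 3-day shams and 0 for 9-day against 3-day shams, and no batch term could be fitted for the shams of 21 days. With the length trend removed, chosen after seeing the data, they were 1 for Old Early IZ, 16 for Old Late BZ, 2 for the Young Late minus Early difference, 9 for 15-day against 3-day shams and 0 for 21-day against 9-day shams. With limma-voom and the animal as a random replicate block they were 3 for Young Early IZ, 19 for Old Late BZ and 0 for 21-day against 9-day and 9-day against 3-day shams. The DESeq2 test gave 15 for Old Late BZ, 14 for Young Early IZ against BZ, 1 for Old Late IZ against BZ, 1 and 2 for the early IZ and late BZ differences between ages, 6 for 21-day against 9-day shams and 2 for 9-day against 3-day shams. The compared groups alone gave 10 for Young Early IZ, 4 for Old Early IZ, 1 for Old Early BZ, 16 for Young Late BZ, 11 for Old Late IZ, 0 for Young Early IZ against BZ, 5 for the early IZ difference between ages, 24 for 15-day against 3-day shams, 0 for 21-day against 9-day shams and 3 for 9-day against 3-day shams. With no count filter they were 2 for the Young Late minus Early difference, 1 for 21-day against 9-day shams and 0 for 9-day against 3-day shams. Without the replicate block of the animal, 0 members were called for Young Early IZ against BZ, where 8 were called with it, and it changed no other count.

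Leaving out 1 library at a time gave ranges of 1 to 7 for Young Early IZ, 24 to 36 for Young Late IZ, 6 to 36 for Young Late BZ, 5 to 32 for Old Late IZ, 0 to 27 for Old Late BZ, 0 to 9 for Young Early IZ against BZ, 0 to 3 for the early IZ, 0 to 6 for the late IZ and 0 to 2 for the late BZ difference between ages, 0 to 24 and 0 to 7 for the Late minus Early difference in Young and Old pigs, and 7 to 10, 0 to 6 and 0 to 3 for 15-day against 3-day, 21-day against 9-day and 9-day against 3-day shams. It gave 0 to 0 elsewhere. Of all 339 alternative counts of members called 250 stayed within 1.5 times. The cause of these shifts was not tested. A search of the members' promoters for motifs was not run, because no promoter sequence was used here.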

Other observations

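CDKN2B, which encodes an inhibitor of CDK4 and CDK6, had 1, 2 and 0 reads in Old Late shams and 17, 38 and 33 reads in Old Late IZ, and 14, 5 and 4 reads in Young Late IZ against 1, 2 and 2 in the shams. CDKN2A, also in the list of CDK inhibitors, rose by 4.25 ± 1.12 in Old Late IZ (adjusted p = 0.0021, edgeR quasi-likelihood test). In Old Late BZ it rose by 3.82 ± 1.21 (adjusted p = 0.0122, same test). Read counts of CDKN2A are not given here, so these fold changes do not show how few reads they rest on. PKMYT1, a kinase that inhibits CDK1 in the manner of WEE1, was at 5.07, 1.97 and 2.99 CPM in Old Late IZ against 0.769, 1.52 and 0.563 in the shams (1.82 ± 0.54, adjusted p = 0.00618, edgeR quasi-likelihood test). PIMREG, a mitotic regulator of the list of further mitosis genes, was below 13 CPM in all Young Early shams and IZ libraries, with 5.11, 10.7 and 10.04 CPM in the IZ. In Young Late IZ it was at 49.4, 41.5 and 32.8 CPM against 19.2, 4.40 and 2.40 in the shams.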
